A study of Mus musculus with 6 samples.

Results

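The amino acid transporters described here are 9 genes whose symbols stood in a fixed list, among 11922 genes of the count table: Slc7a5, Slc7a6, Slc3a2, Slc7a1, Slc1a5, Slc38a1, Slc38a2, Slc6a6 and Slc38a9. All 9 were found and all 9 passed the filter on low counts. The list was named for the plasma membrane, which holds for 8 of the genes. Slc38a9 encodes a protein of the lysosomal membrane and is described apart from the others. RNA was sequenced from splenic CD8+ T cells of C57BL6/J mice, activated with anti-CD3/anti-CD28 beads for 72 hours and expanded for 4 more days, with IL-2 at 100 units/ml throughout. From the start to harvest on day 7 the cells of each mouse were cultured in medium with water (vehicle) or 0.25 mM AOA added. AOA is aminooxyacetic acid, which inhibits enzymes that depend on PLP, the active form of vitamin B6. Each of 3 mice gave 1 culture to each group, which made 3 libraries per group, each named here by its treatment and mouse. The control cells therefore share the beads, the cytokine and the culture time with the treated cells, and the cells came from culture and not from an animal exposed to the drug.

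Activated T cells import amino acids to make protein and to fuel growth. SLC7A5 and SLC7A6 reach the cell surface as heterodimers with the heavy chain SLC3A2, also known as CD98. They exchange amino acids, whereas SLC38A1 and SLC38A2 use the sodium gradient to bring neutral amino acids in, and SLC7A1 carries arginine and lysine without sodium. SLC38A9 senses arginine inside the lysosome and signals to the Rag GTPases, which place the growth kinase mTORC1 on the lysosomal surface.

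Total counts were between 12881962 and 18934869 in the vehicle libraries and between 18696114 and 21997078 in the AOA libraries. Libraries of a group were further apart than counting error allows (chi-square per gene of up to 71.1) and were kept as separate samples. Vehicle 2 and AOA 1 stood apart from the other libraries of their groups. Vehicle 2 lay at -44.1 on the second principal component, against 21.8 and 19.5 for the other vehicle libraries. AOA 1 was compared with the mean of the other AOA libraries on the log2 scale. Its 6276 genes of at least 2758 bases, the length of the shortest of the transporters, lay at a median of -0.14 from that mean. Its 5483 shorter genes lay at 0.21. Among the 9 transporters vehicle 2 was the highest of its group for 7 and vehicle 3 the lowest for 8, and AOA 2 was the highest for 7 and AOA 1 the lowest for 7. Fold changes of the 9 transporters that moved by over 1.5 times, or changed call, without a library are given with their value or range without it. All 7 CD8 T cell markers were found, with a summed level of 4136 to 5166 CPM (counts scaled to a common library size) in vehicle and 5216 to 6088 CPM in AOA libraries. Summed CD4 T cell markers were at 154 to 205 CPM in vehicle and 32.4 to 53.1 CPM in AOA (3 of 3 found), myeloid markers at 55.5 to 67.5 and 4.18 to 7.82 CPM (4 of 6), B cell markers at 12.6 to 16.6 and 22.6 to 30.7 CPM (4 of 5) and NK cell markers at 145 to 308 and 128 to 213 CPM (3 of 4), while 0 of 6 erythroid markers were in the table. In vehicle most of the myeloid value was that of Itgam, and Cd68 was at 13.3 to 15.2 CPM in vehicle and 3.31 to 4.49 CPM in AOA libraries, while Lyz2 and Cd14 reached at most 1.16 and 1.03 CPM in any library. The highest NK cell sum was that of vehicle 2, at 308 CPM against 175 and 145 CPM in vehicle 1 and 3. In the AOA group it was that of AOA 2, at 213 CPM against 128 and 147 CPM in AOA 1 and 3. The NK cell marker Klrb1c was at 41.7, 111 and 20.1 CPM in vehicle 1, 2 and 3. The part of other cells in the transporter results was not tested, and in bulk RNA fewer cells of a type and less RNA per cell cannot be told apart.

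The transporters did not move together after AOA treatment. In the edgeR comparison, where a gene is called at a Benjamini-Hochberg adjusted p under 0.05 over the 11759 genes tested, Slc7a1 rose, Slc38a9 and Slc1a5 fell, and the other 6 were not called. The 1 raised gene of 9 stands beside 26.2% of all tested genes raised, the 2 lowered beside 26.8% lowered, and the 3 called in either direction beside 53.0%. The AOA and vehicle libraries did not overlap for the same 3 genes, against 62.1% of all tested genes. The median log2 fold change (AOA relative to vehicle) of the 9 was -0.16, and that of all tested genes was -0.02. With the mouse as a replicate block, Slc7a5 was also called raised and Slc1a5 was no longer called, which gave 2 raised and 1 lowered.

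**Figure D1:**
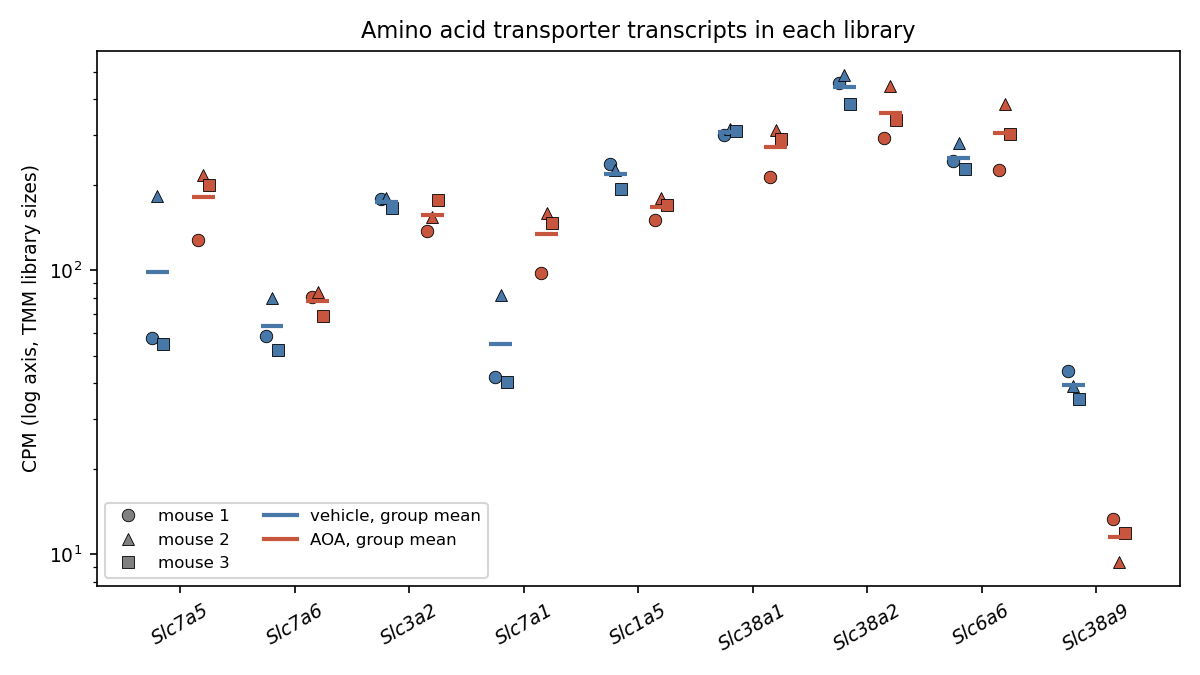
CPM of the 9 transporters in each library on a log axis, with blue for vehicle, red for AOA, a symbol shape for each mouse and a bar for the group mean (n = 3). The AOA points of Slc7a1 all lie above and those of Slc1a5 and Slc38a9 all lie below the vehicle points, and vehicle 2 of Slc7a5, at 182 CPM, lies near the AOA points.

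Reference sequence from upstream of a start site is shown for the transporter that rose and for the one that fell most, since both calls held in all alternatives tried. Each stretch is from RefSeq on GRCm38.p6 and is written 5′ to 3′ on the gene's strand. That of Slc7a1 is chr5:148399935-148400054 on the minus strand, outside the annotated gene and upstream of its start. That of Slc38a9 is chr13:112660616-112660735 on the plus strand, upstream of the RefSeq start used but inside the annotated span of the gene. Neither holds a base of an exon in GENCODE vM21.
Slc7a1: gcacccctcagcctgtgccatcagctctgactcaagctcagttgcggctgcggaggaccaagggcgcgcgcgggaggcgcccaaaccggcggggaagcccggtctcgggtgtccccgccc
Slc38a9: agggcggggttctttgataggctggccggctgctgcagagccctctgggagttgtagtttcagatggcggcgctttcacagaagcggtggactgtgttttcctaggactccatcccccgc
Promoters were given for 5 of the 9 genes (Slc38a9, Slc38a2, Slc7a6, Slc7a1 and Slc3a2), 7 promoters in all. Both strands of the 250 upstream bases were searched for TGATGNAA, the core of the element bound by C/EBP and ATF factors, and for the E-box CACGTG. Neither was found in any of the 7 promoters, so no letter is in capitals above. Of all 32851 promoters of the same length, 3.45% held the first and 6.02% the second. These letters were absent from these windows, which says nothing of the factors themselves.

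Slc7a1 encodes the cationic amino acid transporter CAT1 and lies at chr5:148327410-148399904 (GRCm38.p6, as all positions here). Its level was 42.1, 81.8 and 40.3 CPM in vehicle 1, 2 and 3 and 97.7, 159 and 147 CPM in AOA 1, 2 and 3. Every AOA library was above every vehicle library, and in each group the mouse 2 library was the highest. The group means were 54.8 ± 23.5 CPM with vehicle and 134 ± 32.3 CPM with AOA (SD, n = 3), a 2.45-fold difference. The log2 fold change was 1.29 (SE 0.29, 95% interval 0.64 to 1.95, adjusted p = 0.00491), and 7.93% of tested genes had a higher one. Within mouse 1, 2 and 3 the log2 ratio of AOA to vehicle was 1.21, 0.95 and 1.86. Vehicle 2 was 1.99-fold above the mean of the other vehicle libraries, and without it the log2 fold change was 1.74. The call held in 15 of 15 alternatives, between 1.14 and 1.74.

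Slc38a9, the lysosomal arginine sensor, showed the largest change of the 9 with all libraries in the fit, while without vehicle 2 it was level with Slc7a1 (-1.74 and 1.74). Its level was 44.0, 38.9 and 35.1 CPM in vehicle and 13.2, 9.41 and 11.9 CPM in AOA libraries, from 554 to 647 counts and from 178 to 288 counts. The lowest vehicle library was far above the highest AOA library, and no library of either group stood apart. The mean fell from 39.3 ± 4.44 to 11.5 ± 1.95 CPM (SD, n = 3), so that vehicle was 3.42-fold above AOA. The log2 fold change was -1.77 (SE 0.18, 95% interval -2.16 to -1.37, adjusted p = 7.44e-05), and 6.17% of tested genes had a lower one. The gene was lower with AOA in each mouse, by log2 ratios of -1.72, -2.04 and -1.55, and the call held in 15 of 15 alternatives, between -1.88 and -1.54. The gene lies at chr13:112656189-112738752, and 182 of its exonic bases overlap the antisense gene Gm47827. Without the strand setting of the counting, reads of that overlap cannot be assigned to either gene.

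Slc1a5 encodes ASCT2, a sodium-dependent exchanger of neutral amino acids such as glutamine, at chr7:16781334-16798274. Its level was 235, 225 and 193 CPM in vehicle and 150, 179 and 170 CPM in AOA libraries. All AOA libraries were below all vehicle libraries, though the nearest values of the groups lay close together. The mean fell from 218 ± 22.1 to 166 ± 14.9 CPM (SD, n = 3), with a log2 fold change of -0.39 (SE 0.14, 95% interval -0.71 to -0.07, adjusted p = 0.0412). With the mouse as a replicate block the log2 fold change was again -0.39 and the adjusted p was 0.0650. The call was also lost without any 1 of the 6 libraries (log2 fold change -0.44 to -0.31, adjusted p from 0.0596 to 0.179). The direction was the same in 3 of 3 mice.

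Slc7a5 encodes LAT1, the light chain that carries leucine and other large neutral amino acids, at chr8:121881146-121907686. Its level was 57.8, 182 and 54.8 CPM in vehicle and 128, 216 and 199 CPM in AOA libraries. Vehicle 2 was 3.24-fold above the mean of the other vehicle libraries and higher than AOA 1, so that the groups overlapped. The log2 fold change was 0.88 (SE 0.43, 95% interval -0.09 to 1.85, adjusted p = 0.114), the widest interval of the 9 genes. Within each mouse AOA was above vehicle, by log2 ratios of 1.14, 0.24 and 1.86. With the mouse as a replicate block the log2 fold change was 1.08 (adjusted p = 0.00853), and without vehicle 2 it was 1.72 (adjusted p = 2.36e-04).

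Slc3a2, the heavy chain that SLC7A5 and SLC7A6 share, lies at chr19:8706882-8723369. Its level was 177, 179 and 165 CPM in vehicle and 137, 154 and 176 CPM in AOA libraries. The groups overlapped, and AOA was above vehicle in 1 of 3 mice. The log2 fold change was -0.16 (SE 0.14, 95% interval -0.47 to 0.15, adjusted p = 0.356), and leaving out a library gave -0.25 (without AOA 3) to -0.07 (without AOA 1). Slc7a6 encodes y+LAT2, which exchanges cationic for neutral amino acids, at chr8:106168219-106198714. It was at 58.7, 79.6 and 52.3 CPM in vehicle and at 80.2, 83.9 and 68.8 CPM in AOA libraries, higher with AOA in 3 of 3 mice but with overlapping groups. Its log2 fold change was 0.29 (SE 0.17, 95% interval -0.10 to 0.68, adjusted p = 0.189). Without vehicle 2, the highest vehicle library of this gene too, it was 0.52 (adjusted p = 0.0121), and without vehicle 3 it was 0.19. The neighbour Slc7a6os shares no exonic base with Slc7a6 in GENCODE vM21, and its log2 fold change was -0.27 (adjusted p = 0.181).

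**Figure D2:**
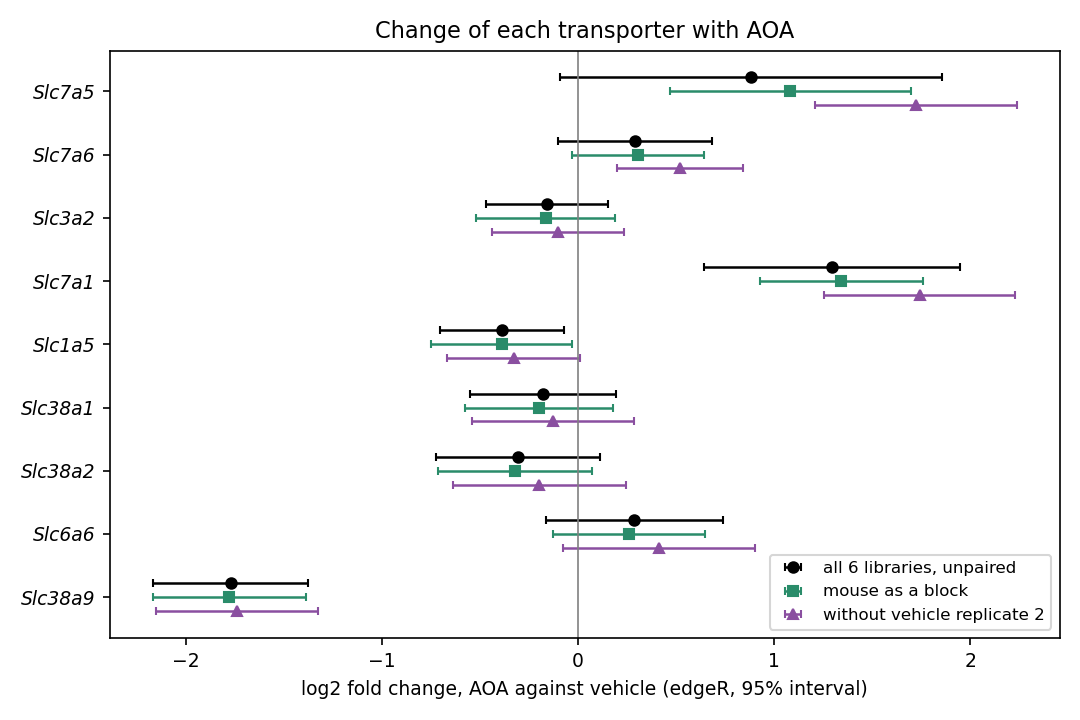
log2 fold change of each transporter, AOA relative to vehicle, by edgeR with its 95% interval: black circles for all 6 libraries, green squares with the mouse as a block and purple triangles without vehicle replicate 2. Slc7a1 and Slc38a9 lie clear of 0 in all 3 fits, whereas Slc7a5 moves from 0.88 to 1.08 and 1.72, and the interval of Slc1a5 ends near 0.

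Slc38a1 and Slc38a2 encode the sodium-coupled neutral amino acid transporters SNAT1 and SNAT2 and are neighbours on chromosome 15, at chr15:96571418-96643438 and chr15:96687392-96699728, with 43953 bases between them. Slc38a1 was at 299, 314 and 308 CPM in vehicle and at 212, 312 and 289 CPM in AOA libraries. The vehicle libraries were almost level, with a coefficient of variation of 2.37%, and AOA 1 was the low library of the other group. The log2 fold change was -0.18 (SE 0.17, 95% interval -0.55 to 0.19, adjusted p = 0.388), and leaving out a library gave -0.29 (without AOA 2) to -0.03 (without AOA 1). With the gene length trend removed, an alternative chosen after seeing the data, it was -0.0013. Slc38a2 was at 455, 486 and 386 CPM in vehicle and at 292, 443 and 338 CPM in AOA libraries, and its groups overlapped although AOA was below vehicle in 3 of 3 mice. Its log2 fold change was -0.31 (SE 0.19, 95% interval -0.72 to 0.11, adjusted p = 0.193), and leaving out a library gave -0.48 (without AOA 2) to -0.18 (without AOA 1). Neither gene was called in any of 15 alternatives.

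Slc6a6 encodes the sodium- and chloride-dependent transporter of taurine, an amino acid that is not built into protein, at chr6:91684048-91759063. It was at 241, 279 and 226 CPM in vehicle and at 224, 385 and 302 CPM in AOA libraries. AOA 2 and AOA 3 were above all vehicle libraries, and AOA 1 was below all of them. The log2 fold change was 0.29 (SE 0.20, 95% interval -0.16 to 0.74, adjusted p = 0.253), and without AOA 1 it was 0.47 (adjusted p = 0.0425), while without AOA 2 it was 0.086. An overlap of 117 exonic bases with Gm44981 on the opposite strand leaves those reads unassigned between the genes.

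To order the genes by level, CPM were divided by the deposited gene length in kilobases (CPM per kb). With vehicle the highest were Slc38a2 at 95.5 ± 11.1 and Slc1a5 at 79.0 ± 8.01 CPM per kb (SD, n = 3). Their ranges overlapped, though Slc38a2 was the higher within each vehicle library. Slc3a2 followed at 58.8 ± 2.62 CPM per kb, then Slc6a6 at 40.3 ± 4.40, both separate from the gene above in all libraries. Slc6a6 overlapped with Slc38a1 at 36.6 ± 0.87 CPM per kb, that gene with Slc7a5 at 28.0 ± 20.7, and Slc7a5 with Slc7a6 at 17.0 ± 3.82. The overlap of Slc7a5 with Slc38a1 rested on vehicle 2, since Slc7a5 was at 16.4, 51.8 and 15.6 CPM per kb in vehicle 1, 2 and 3 and Slc38a1 at 35.6, 37.4 and 36.7. Slc7a1 at 7.56 ± 3.24 and Slc38a9 at 4.41 ± 0.50 CPM per kb lay separately at the bottom.

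With AOA the order of the first 3 was the same, at 77.3 ± 16.8 CPM per kb for Slc38a2, 60.3 ± 5.41 for Slc1a5 and 52.7 ± 6.57 for Slc3a2. Slc7a5 stood next, at 51.5 ± 13.3 CPM per kb, ahead of Slc6a6 at 49.2 ± 13.0 and Slc38a1 at 32.3 ± 6.23. The range of each of these 6 overlapped with that of its neighbour. Within each AOA library Slc38a2 was above Slc1a5, Slc1a5 above Slc3a2 and Slc6a6 above Slc38a1. The order of Slc7a5 to Slc3a2 and to Slc6a6 changed between libraries. Slc7a6 at 20.8 ± 2.11 and Slc7a1 at 18.6 ± 4.46 CPM per kb overlapped with each other and lay below Slc38a1. Slc38a9 lay last, at 1.29 ± 0.22 CPM per kb. In vehicle 29.5% of tested genes had a lower level per kb than Slc38a9, and in AOA 15.3% did, while the share below Slc7a1 was 41.2% in vehicle and 64.3% in AOA.

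The 8 plasma membrane genes were then set beside 14 other plasma membrane amino acid transporter genes of the table, and the CPM per kb of these 22 genes were summed. The sum was 432, 453 and 386 CPM per kb in vehicle and 334, 450 and 409 in AOA libraries, with overlapping groups. The 8 genes made up 82.5%, 91.4% and 82.2% of it in vehicle and 88.9%, 93.0% and 91.3% in AOA libraries. Slc7a5 took 3.81%, 11.4% and 4.04% of the sum in vehicle and 10.9%, 13.7% and 13.9% in AOA libraries, so that vehicle 2 lay inside the AOA range. Slc7a1 took 1.35%, 2.49% and 1.44% in vehicle and 4.04%, 4.87% and 4.97% in AOA libraries. The mean share of Slc38a2 was 22.5% in vehicle and 19.4% in AOA, and that of Slc1a5 was 18.6% and 15.3%. Shares add up to 100% in each library, so a higher share of some genes lowers that of others, and they were not tested.

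**Figure D3:**
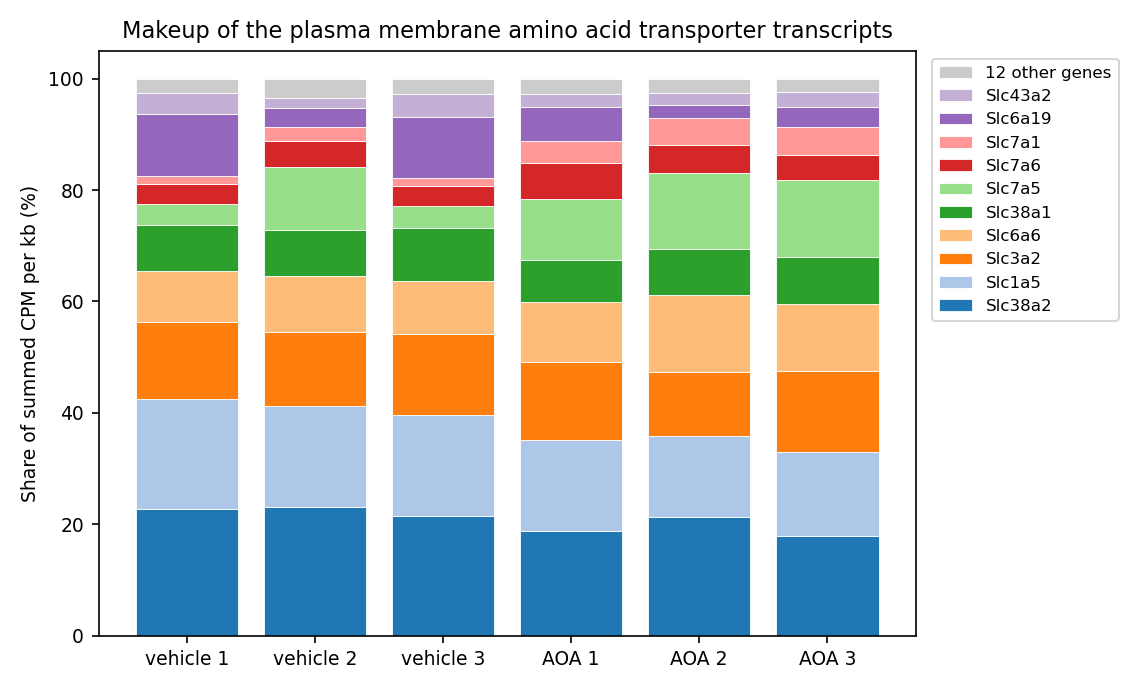
Share of each gene in the summed CPM per kb of 22 plasma membrane amino acid transporter genes, as stacked bars that add to 100% for each library. Slc7a5 and Slc7a1 take wider bands in the AOA libraries than in vehicle 1 and 3, and Slc6a19, the widest band of the other genes, takes 11.2%, 3.29% and 10.9% in vehicle 1, 2 and 3.

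Ratios between transporters were formed within a library, on counts per kb, so that library scaling has no part in them. The ratio of the light chain Slc7a5 to its heavy chain Slc3a2 was 0.274, 0.856 and 0.280 in vehicle and 0.782, 1.18 and 0.953 in AOA libraries. It was higher with AOA in 3 of 3 mice, and vehicle 2 was above AOA 1. The mean log2 difference was 1.25 ± 0.69 (SD over 3 mice), with p = 0.2 in a two-sided exact permutation test and an adjusted p of 0.25 over the 5 ratios. The smallest p that this test can give with 3 against 3 libraries is 0.1. Without mouse 2 the log2 difference was 1.64, and without mouse 1 or mouse 3 it was 1.12 or 0.99.

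The ratio of Slc7a1 to Slc7a6, which both carry cationic amino acids, was 0.370, 0.530 and 0.397 in vehicle and 0.628, 0.974 and 1.10 in AOA libraries. All AOA values were above all vehicle values, and the mean log2 difference of 1.04 ± 0.38 (SD over 3 mice) had the smallest exact permutation p possible, 0.1 (adjusted 0.25). The mean log2 difference was 0.78 ± 0.65 for Slc7a5 to Slc7a6 and 0.47 ± 0.30 for Slc7a6 to Slc3a2, each with an exact permutation p of 0.2 (adjusted 0.25) and each higher with AOA in 3 of 3 mice. Without mouse 3 the first was 0.43, and without mouse 1 the second was 0.30. For the neighbours Slc38a1 and Slc38a2 the ratio was 0.363, 0.356 and 0.440 in vehicle and 0.401, 0.388 and 0.472 in AOA libraries. These values overlapped between groups, with a log2 difference of 0.12 ± 0.02 (SD over 3 mice) and an exact permutation p of 0.5 (adjusted 0.5). This test does not use the mouse. Within mice the log2 difference of the pair was of the same sign and similar, between 0.10 and 0.14. In an exact sign-flip permutation test of the within-mouse differences, chosen after seeing the data, all 5 ratios had p = 0.25 (adjusted 0.25), the smallest that 3 mice allow.

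**Figure D4:**
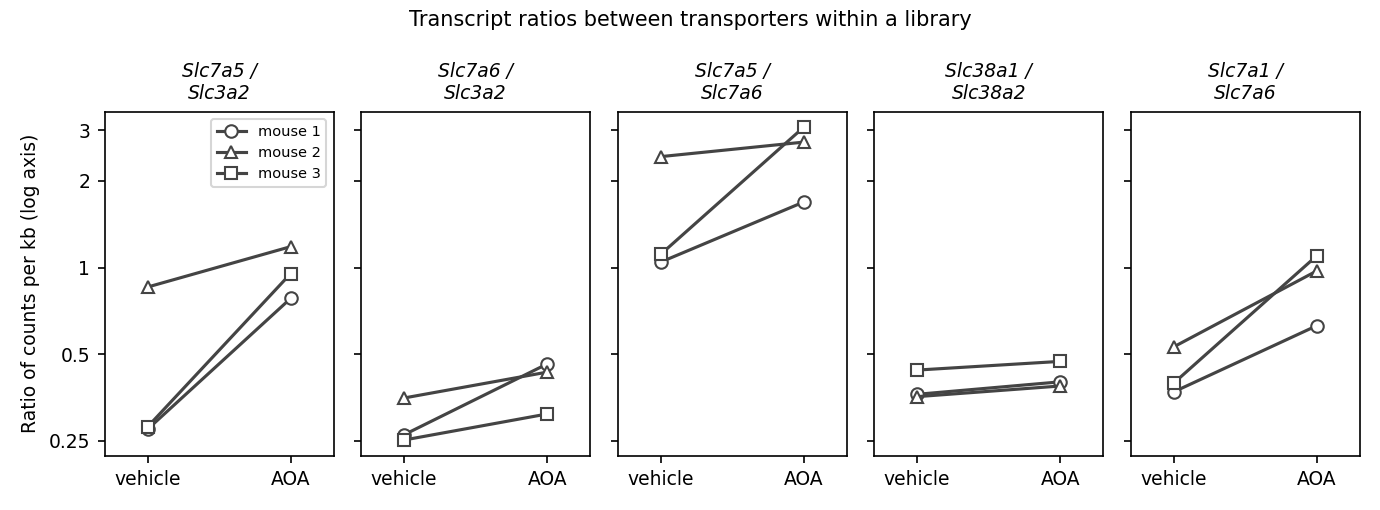
Ratios of counts per kb between pairs of transporters within each library, on a shared log axis, with a line joining vehicle and AOA of each mouse. All lines rise, steeply for Slc7a5 to Slc3a2 in mice 1 and 3 and little for Slc38a1 to Slc38a2.

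Of 40 other plasma membrane amino acid transporters that were listed, 14 were in the table and 12 were tested, and the rest were not analysed here. Of the 12, 1 rose and 2 fell, beside 26.2% and 26.8% of all tested genes, with a median log2 fold change of -0.52, against -0.16 for the 9 transporters. Slc36a4, a proton-independent transporter of neutral amino acids, rose by 0.58 on the log2 scale (adjusted p = 0.0434), a call that was lost with the replicate block (adjusted p = 0.0630) and without vehicle 1, vehicle 3, AOA 1, AOA 2 or AOA 3 (adjusted p from 0.0688 to 0.124), and that held in 7 of 14 alternatives. Slc6a19, the neutral amino acid transporter of gut and kidney, was at 118, 36.3 and 102 CPM in vehicle and 49.9, 24.4 and 35.5 CPM in AOA libraries, with a log2 fold change of -1.22 (adjusted p = 0.0285). Its vehicle 2 value lay inside the AOA range, and the call held in 9 of 15 alternatives, among them that without vehicle 2 (-1.55, adjusted p = 6.75e-04). The call of Slc6a19 was lost in DESeq2 (adjusted p = 0.0548) and limma voom (adjusted p = 0.0546). It was also lost without vehicle 1, vehicle 3, AOA 2 or AOA 3 (log2 fold change -1.20 to -0.90, adjusted p from 0.0865 to 0.130). Slc6a13, a transporter of the neurotransmitter GABA, fell from 15, 21 and 22 counts to 3, 2 and 1, with a log2 fold change of -3.56 that depends on the prior count at this depth.

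Because Slc38a9 is lysosomal, its change was set beside 11 other genes of lysosomal transport. Of these, 8 fell and 0 rose, beside 26.8% and 26.2% of all tested genes, with a median log2 fold change of -0.97, and Slc37a2 and Slc15a3 were the members with a lower value than the -1.77 of Slc38a9. Slc37a2, which belongs to a family of sugar phosphate carriers and not of amino acid transporters, fell from 22.1 to 1.98 CPM in mean (log2 fold change -3.48). The cystine exporter Ctns fell by 1.37 on the log2 scale. Slc15a3, a carrier of histidine and small peptides, was low, at 0.40, 1.65 and 1.09 CPM in vehicle and 0.28, 0.53 and 0.10 CPM in AOA libraries (log2 fold change -1.80, adjusted p = 0.0400, overlapping groups). Its call was lost in DESeq2 (adjusted p = 0.0689) and without vehicle 2, vehicle 3, AOA 1 or AOA 3 (log2 fold change -1.33 to -1.77, adjusted p from 0.0838 to 0.134). With the mouse as a replicate block 7 of the genes were lowered, and leaving out vehicle 3, AOA 1 or AOA 3 left 5. Besides Slc15a3, the calls of Slc15a4 and Slc38a7 were each lost in 7 alternatives. The summed myeloid markers were lower with AOA as well, and their part in these values was not tested.

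The amino acid sensing list holds the genes through which SLC38A9 and other sensors reach mTORC1, and the kinase that senses uncharged transfer RNA. All 35 were tested, and 7 rose and 10 fell, near the shares of all tested genes (26.2% and 26.8%), with a median log2 fold change of -0.04. With the mouse as a replicate block 10 rose and 10 fell. Sec13 and Seh1l, which take part in both the nuclear pore and the GATOR2 complex, rose by 1.32 and 0.86, and Rheb, the GTPase that activates mTORC1, rose by 0.85. Castor2, of the CASTOR family that takes part in arginine sensing, fell by 0.88, Eif2ak4, which encodes the kinase GCN2, fell by 0.84, and Rptor, the raptor subunit of mTORC1, fell by 0.76, all on the log2 scale.

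Of 12 regulators of these transporters, 3 rose and 4 fell, near the shares of all tested genes (26.2% and 26.8%), with a median log2 fold change of 0.12. Atf4, a transcription factor of the amino acid response, had a log2 fold change of -1.03 (adjusted p = 4.81e-04), its partner Ddit3 one of -2.31 and the oxygen-sensitive factor Hif1a one of -1.41. Myc, a transcription factor that T cells use to raise amino acid transport, had a log2 fold change of 0.45 (adjusted p = 0.0331), and its call was lost without vehicle 1, vehicle 3, AOA 2 or AOA 3 (adjusted p from 0.0517 to 0.123). The ubiquitin ligase Nedd4l and its adaptor Ndfip2, which belong to a system that removes transporters from the surface, rose by 0.83 and 0.51, whereas, of the other ubiquitin genes of the list that were named after their values were seen, the ligase Itch fell by 0.74 and Nedd4, Ndfip1 and Rnf5, at 0.13, 0.12 and 0.28, were not called. The call of Ndfip2 was lost without vehicle 1 or vehicle 3 (adjusted p = 0.0701 and 0.0677). No relation between regulators and transporters was tested.

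**Figure D5:**
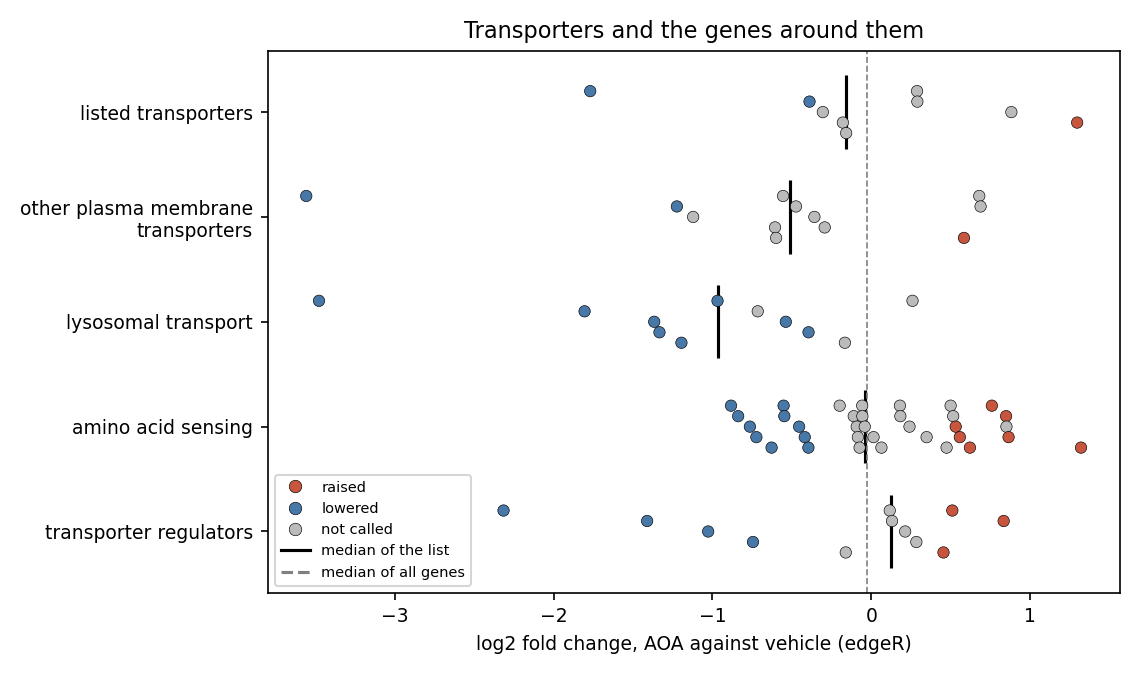
log2 fold change (edgeR, AOA relative to vehicle) of each tested gene in the 9 transporters and in 4 lists, with red for raised, blue for lowered and grey for not called. Black lines mark the median of each list, -0.16, -0.52, -0.97, -0.04 and 0.12 from top to bottom, and the dashed line marks the median of all tested genes, -0.02.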

How the data were processed

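The authors prepared stranded messenger RNA libraries, sequenced them as paired-end reads of 75 bases, used STAR for alignment and counted reads that mapped uniquely. The file they deposited holds raw counts per gene, beside gene lengths. The submitters' processing notes list bcl2fastq, STAR, featureCounts, DESeq2 and the build mm10, without versions. Not given in the sources used here were annotation, strand setting and gene filter.

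Tests were run with edgeR 4.0.16 under R 4.3.3: filterByExpr (minimum count 10), TMM, and the robust two-sided quasi-likelihood test with Benjamini-Hochberg adjustment over all 11759 tested genes and a threshold of 0.05. CPM use TMM library sizes. Alternatives were a fit with a replicate block for the mouse, leaving out single libraries, voom of limma 3.58.1, DESeq2 1.42.0, scaling by total counts only or by median-of-ratios size factors, and a filter of at least 10 CPM in 3 libraries or none at all. Removal of a trend with gene length, with and without the block, and sign flips of within-mouse ratio differences were chosen after seeing the data. The edgeR fits with and without the block, voom and DESeq2 were tried on simulated counts that held no mouse effect and no length trend. Ratio tests, shares and the removal of the length trend were not tried on simulated counts.

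The labels give the same mouse donors to both groups, which pairs the libraries. Deviations from the group means correlated within mouse 1, 2 and 3 with r of 0.0864, 0.190 and 0.196 across genes, which are not independent replicates.

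The transporters and the gene and marker lists were chosen with earlier results of these data known. From each list up to 3 raised and 3 lowered genes with at least 1 CPM in the higher group are named, taking the largest absolute log2 fold changes. Itch, Nedd4, Ndfip1, Rnf5, Slc15a4 and Slc38a7 fall outside this rule and were named after their values were seen. Genes of unsettled place (Slc38a6, Slc38a10) were left out. Positions and promoters are from RefSeq tables of GRCm38.p6, the assembly that mm10 names.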

Additional observations from a re-analysis of the deposited data

How the results depend on the processing

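Slc7a1 and Slc38a9 kept direction and call in 15 of 15 alternatives, and no transporter changed direction in any. Slc1a5 lost its call with total counts only (log2 fold change -0.38, adjusted p = 0.0585), with no low-count filter (-0.36, 0.0580) and with the mouse as a replicate block (-0.39, 0.0650), each of which left 1 transporter lowered. Leaving out a library gave -0.44 to -0.31 for Slc1a5 and 1 transporter lowered each time. With the replicate block Slc7a5 passed (1.08, adjusted p = 0.00853), which gave 2 transporters raised. With a gene length trend removed and the replicate block, an alternative chosen after seeing the data, Slc7a5 (1.10, adjusted p = 0.0165) and Slc6a6 (0.40, adjusted p = 0.0309) passed, which gave 3 raised, and Slc1a5 was called (-0.40, adjusted p = 0.0342), as it was with the length trend removed alone (-0.40, adjusted p = 0.0254). The block changed no other call among the transporters. It gave 10 raised genes of amino acid sensing and 7 lowered genes of lysosomal transport. As for the ratios, sign flips within mice, as the paired form of the ratio tests, gave 0.25 for all 5 ratios, whose log2 differences are the same in both forms (1.25, 0.47, 0.78, 0.12 and 1.04).

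Leaving out each library in turn gave log2 fold changes of 0.61 to 1.72 for Slc7a5, 0.19 to 0.52 for Slc7a6 and 0.086 to 0.47 for Slc6a6, and 1 to 3 transporters raised, with the 3 without vehicle 2. It gave 6 to 10 lowered and 5 to 11 raised genes of amino acid sensing, 5 to 7 lowered genes of lysosomal transport, 2 to 3 lowered and 0 to 2 raised among the other plasma membrane transporters, and 1 to 4 raised regulators. Of the other plasma membrane transporters 1 was lowered under limma voom, and 1 was lowered and 0 raised with at least 10 CPM in 3 libraries, a filter that tests fewer genes. The shares of all tested genes called are given for the main fit only. A shift in the counts of a list was therefore not set apart from one over all tested genes. The cause of the other shifts was not tested. The 95% interval of Slc7a5 was the widest of the 9 transporters, from -0.09 to 1.85, and without vehicle 2 it ran from 1.21 to 2.24.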
